A study of Mus musculus with 4 samples.

Results

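The histone genes described here were all genes on the array whose symbol begins with Hist1h to Hist4h, H2af, H3f3 or H1f, which are 64 of the 24185 gene symbols present and are covered by 80 probes. They comprise 49 genes with Hist1h to Hist4h symbols, called cluster genes here. The others are 14 genes of variant or linker histones outside the clusters, called variant genes here, and H2afx, which is kept apart. Hist1h2al is counted among the cluster genes by its symbol only, as its probe maps away from the other Hist1 probes. Symbols are those of the array annotation, and RefSeq lists all 64 genes, with Hist1h2al, Hist3h2bb-ps and H2afy3 as transcribed pseudogenes. RNA was immunoprecipitated (RIP) from cortical and hippocampal lysate of male C57BL/6 mice, 8 weeks old, by 3 h of incubation with beads carrying CPEB2 IgG or control IgG, and 0.2 µg was hybridised to 1-colour arrays. The lysate was divided between the antibodies in each of 2 independent experiments, which gave 2 arrays per antibody and 2 pairs. No genotype or treatment other than the antibody distinguished the groups, and neither tissue input nor an immunoprecipitate from mice lacking CPEB2 was analysed here. One text field of the CPEB2 samples names CPEB3 IgG, whereas titles, protocol and paper name CPEB2. Each antibody occupied its own slide positions, so antibody and position cannot be told apart, and because lysate is a bulk sample, fewer cells of a type and less RNA per cell cannot be told apart either.

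Cluster genes encode the core histones H2A, H2B, H3 and H4 and the linker histone H1 that package newly replicated DNA. Their mRNAs are the only animal mRNAs known to end, as a rule, in a conserved stem-loop instead of a poly(A) tail, and the stem-loop is bound by SLBP. Variant histones such as H2A.Z, H3.3 and macroH2A are made throughout the cell cycle from ordinary spliced, polyadenylated mRNAs and replace the cluster histones in neurons that no longer divide. Some cluster genes also yield longer polyadenylated transcripts in differentiated cells, and H2afx yields both kinds of end. CPEB2 binds mRNAs through the cytoplasmic polyadenylation element (CPE), a U-rich motif of 3′ untranslated regions. The question put to these data was whether histone mRNAs with and without a poly(A) tail came down differently with CPEB2 IgG. The labelling kit used primes on poly(A), so the share of each stem-loop mRNA that was labelled is unknown here.

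A complete histone stem-loop, searched by its consensus on both strands, was carried by 6 cluster probes, which is 7.5% of the 80 histone probes against 0.0251% of all 55681 probes on the array (sense strand; 0.0485% on either strand). The windows are shown because the stem-loop lies near the processed, non-polyadenylated end of these mRNAs. The Hist2h2aa2 probe runs on for 38 bases after its stem-loop, and the others for 3 to 6. Capitals mark the stem-loop, coordinates (mm9) come from the array annotation, and the sequence is that of the mRNA strand.
Hist2h2bb, chr3:96074087-96074115, + strand: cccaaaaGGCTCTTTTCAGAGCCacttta
Hist2h2aa2, chr3:96043700-96043728, − strand: taaaaaGGCTCTTTTCAGAGCCacccact
Hist1h3a, chr13:23853756-23853781, − strand: aaccaaaGGCTCTTTTCAGAGCCaca
Hist1h3i, chr13:21874784-21874811, − strand: aacaaaaGGCTCTTTTCAGAGCCccctc
Hist1h4m, chr13:21903991-21904019, + strand: aactaaaGGCCCTTTTCAGGGCCatccaa
Hist1h3g, chr13:23627751-23627778, + strand: ctttaaaGGCTCTTCTTAGAGCCaccca
The first 4 share the same stem-loop letters, while Hist1h4m and Hist1h3g each have letters of their own.

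Hist2h2bb has a second probe in a downstream 3′ region with a poly(A) signal (capitals), shown because the probes of this gene gave opposite values.
Hist2h2bb, chr3:96082777-96082806, + strand: gttgtcagtttgAATAAAgacagagaaact
The brighter probe of H2afv holds the CPE letters TTTTAT (capitals) and is shown as the CPE-bearing variant with the highest signal with CPEB2 IgG.
H2afv, chr11:6328164-6328193, − strand: ttctcccttgtgTTTTATacaaaagtagaa
TTTTAT was found on the sense strand in 4 histone probes, those of H1foo, H2afv, Hist1h2ac and Hist1h2bq, or 5% against 3.69% of all probes. The other CPE form searched, TTTTAAT, was in 0 histone probes and in 0.912% of all probes. These shares refer to the 60-base probes and not to whole untranslated regions. Finally, 6 H2A probes, those of H2afj, Hist1h2af, Hist1h2ah, Hist1h2ak, Hist2h2aa2 and Hist2h2ac, share one coding run of 29 bases, printed because such probes cannot be read as separate genes.
Shared H2A run: ATCCAGGCCGTGCTGCTGCCCAAGAAGAC

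Most cluster genes gave less signal with CPEB2 IgG than with control IgG. Of 46 cluster genes with a probe well above background on at least 2 arrays, 33 were lower, 1 was higher and 12 did not pass limma's paired fit at an adjusted p under 0.05. Across all 19698 genes tested, 20.4% were lower and 21.2% higher, or 4020 and 4174 genes, a split that became 3301 and 5212 when arrays were centred on their medians. The median log2 fold change of cluster genes, CPEB2 IgG over control IgG, was -1.81 (-1.55 in experiment 1 and -1.97 in experiment 2), beside -0.11 for all genes. Both CPEB2 IgG arrays lay below both control IgG arrays for 35 of the 46 cluster genes, against 38.2% of all genes. The variant genes did not move one way. Of 13 variant genes tested, 6 were higher, 4 lower and 3 did not pass, with a median of -0.21 that is the value of a single gene, H2afz. The difference between the class medians was -1.44 in experiment 1 and -2.04 in experiment 2. An exact permutation of 2 against 2 arrays that ignores the pairs cannot give a p below 0.333. A permutation that keeps the pairs allows fewer arrangements still, so this difference carries no test.

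**Figure D1:**
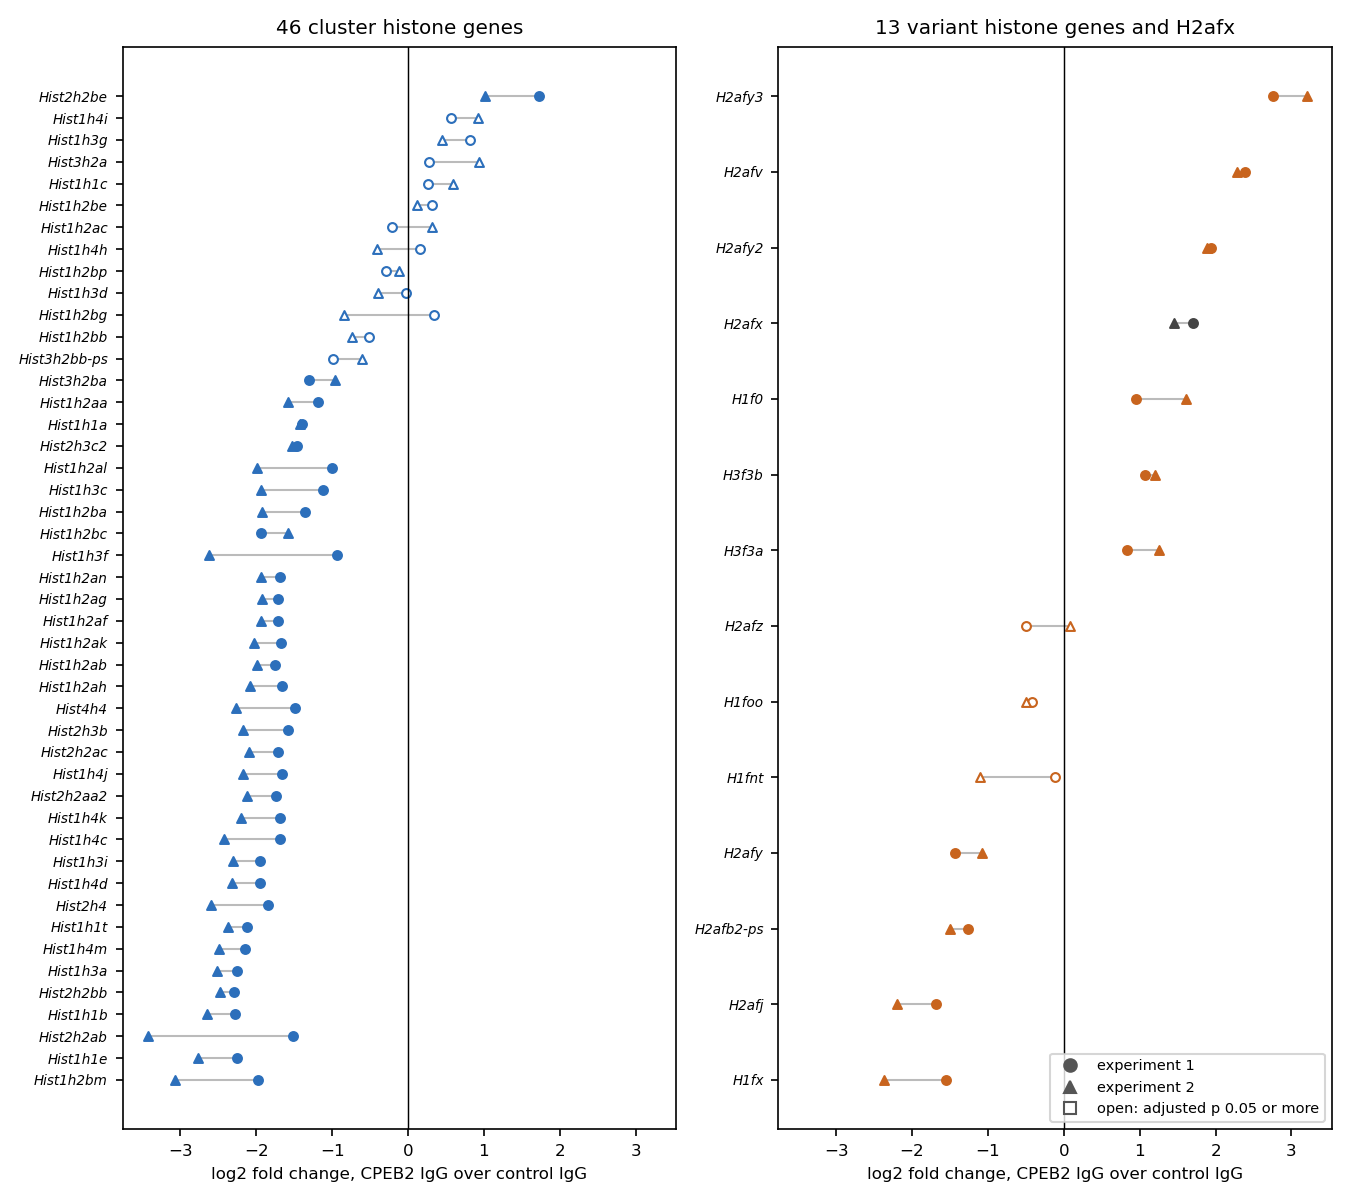
Log2 fold change (CPEB2 IgG over control IgG) of the 60 histone genes tested, with cluster genes on the left and variant genes and H2afx on the right. Circles are experiment 1, triangles are experiment 2, and open symbols did not pass the adjusted p of 0.05. Most cluster genes sit below -1 in both experiments, whereas the variant genes spread from -2.36 to 3.20 over single experiments.

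Every family of cluster histones had a negative median. Linker H1 genes gave -2.25 with 4 of 5 lower, H2A genes -1.83 with 11 of 13 lower, H3 genes -1.66 with 6 of 8 lower and H4 genes -1.94 with 7 of 9 lower. H2B genes were more mixed, with a median of -0.80, 5 of 11 lower and 1 higher. By the number in the symbol, 24 of 34 Hist1 genes, 7 of 8 Hist2 genes, 1 of 3 Hist3 genes and the single Hist4 gene were lower. The 24 include Hist1h2al, whose probe maps to chr13:51299277-51299336. The other placed Hist1 probes lie between chr13:21814057 and chr13:24026527. The values of experiment 2 were below those of experiment 1 for 38 of the 46 genes, and the median of all genes was also lower in experiment 2 (-0.20 against -0.01).

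The cluster gene with the most negative value was Hist1h2bm, an H2B gene. Its processed signals were 1020 and 442 with CPEB2 IgG in experiments 1 and 2, compared with 4256 and 3757 with control IgG. The change was -2.52 ± 0.34 (SE, adjusted p = 0.0075). Hist1h1e, which encodes a linker histone H1, read 819 and 543 with CPEB2 IgG against 4136 and 3751, a log2 fold change of -2.51 ± 0.26 (adjusted p = 0.0055). In both genes the CPEB2 IgG arrays lay well under the control arrays, and the gap was wider in experiment 2. Hist1h1b, another H1 gene, read 54.4 and 29.9 against 279 and 191, which is -2.46 ± 0.25 (adjusted p = 0.0054), or -1.46 with normexp background correction, which shrinks the changes of dim spots. Hist2h2ab, an H2A gene, was dim, with 29.2 and 7.98 against 88.2 and 87.4. Its value of -2.47 ± 0.50 (adjusted p = 0.019) had the widest spread of these genes, its second CPEB2 IgG spot was not well above background, and with normexp it came to -0.79 (adjusted p = 0.0062).

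Hist2h2bb, an H2B gene, completes the 5 most negative genes, and its brighter probe is the stem-loop probe printed above. That probe read 341 and 256 with CPEB2 IgG against 1778 and 1447 with control IgG, a log2 fold change of -2.39 ± 0.23 (adjusted p = 0.0054). All 6 stem-loop probes were well above background on at least 2 arrays, and 5 of them were below -1 in both experiments. Their median was -2.36. The stem-loop probe of Hist2h2aa2 read 1714 and 735 against 7937 and 4969. Hist1h3a was well above background with control IgG only (38.0 and 21.9, against 7.51 and 3.78), so its change is a bound, at least 2.05-fold lower (measured log2 value -2.38, adjusted p = 0.0054). The exception was Hist1h3g, an H3 gene near background whose 27.8 and 30.1 against 16.8 and 22.4 gave 0.63 ± 0.24 (adjusted p = 0.100).

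The 5 cluster genes with the highest control IgG signal were Hist1h2af, Hist1h2ah, Hist2h2aa2, Hist2h2ac (all H2A) and Hist1h4k (H4). Hist1h2ah read 10717 and 6485 with CPEB2 IgG against 35760 and 27900 with control IgG, a log2 fold change of -1.87 ± 0.25 (adjusted p = 0.0074). Hist1h4k read 9044 and 5271 against 30720 and 24609, a log2 fold change of -1.94 ± 0.26 (adjusted p = 0.0074). The groups did not overlap for either gene. Hist1h2af gave -1.83 ± 0.24, Hist2h2aa2 -1.93 ± 0.24 and Hist2h2ac -1.90 ± 0.25, with adjusted p-values between 0.0068 and 0.0070. These values are not separate observations. The 8 H2A probes that share runs of at least 20 bases, the 6 with the printed run and those of Hist1h2ag and Hist1h2an, fell within the narrow range of -1.95 to -1.81. With every gene left out whose tested probe shares such a run with a probe of another gene, 30 cluster genes remained. Of these, 18 were lower, and the median of the 30 was -1.45. Probes were compared only with other probes and not with the mRNAs of related histone genes. The 30 genes are therefore not shown to be separate observations.

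One cluster gene was higher with CPEB2 IgG. Hist2h2be, an H2B gene, read 479 and 249 with CPEB2 IgG against 153 and 126 with control IgG, a log2 fold change of 1.37 ± 0.28 (adjusted p = 0.020). Its probe lies at base 1850 of a long transcript (chr3:96026893-96026952, + strand). The next 4 did not pass the threshold. Hist1h4i read 1380 and 2072 against 988 and 1115 (0.74 ± 0.24, adjusted p = 0.068), on a probe the array annotation does not place on the genome. That probe shares 21 bases with a Galns probe and runs of at least 15 bases with 3 probes of other genes. Its value may therefore not be that of Hist1h4i alone, and the other probes of the gene gave -1.83 and -0.50. Hist3h2a, an H2A gene, read 5929 and 9313 against 5167 and 4944 (0.61 ± 0.27, adjusted p = 0.14). Hist1h1c, a linker H1 gene, read 3937 and 2650 against 3475 and 1793 (0.43 ± 0.24, adjusted p = 0.22), and its first control IgG array lay between the CPEB2 IgG arrays. The remaining one of the 5 is Hist1h3g, given above.

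Of these 5 probes, those of Hist1h4i, Hist3h2a and Hist1h1c began past the end of the RefSeq gene, that of Hist2h2be lay in a gene with a long RefSeq span and that of Hist1h3g lay within its gene. All cluster probes were then sorted by position. The grouping was chosen after the values were seen and is a description with no test. A probe was counted as past the RefSeq end when its first base lay further along the array's transcript than the gene's RefSeq span. Genes with a RefSeq span over 1000 bases were kept apart. For the 6 genes with a complete stem-loop in a probe, the RefSeq span stops close to that stem-loop. No complete stem-loop was located for the other cluster genes. RefSeq models and array transcripts can start at slightly different bases. The count of bases past the end is not a distance on the genome. By this count the second Hist2h2bb probe begins 848 bases past the end. It maps to chr3:96082754-96082813, and the stem-loop probe of that gene to chr3:96074056-96074115. The array annotation does not place the Hist2h3c2 probe or the brightest Hist1h4i probe on the genome. Of 39 detected probes within the RefSeq span, 37 were below 0 in both experiments and 32 were below -1 in both, with a median of -1.88. Several of these 39 share runs of at least 20 bases with other histone probes, so they are not separate observations. The detected probes past the end share no such run with a histone probe. Of 9 detected probes past the end, 3 were below 0 in both experiments and 4 were above 0 in both, and their median was 0.05 (lowest -1.49, highest 0.74). Past the end and near or above 0 lay the probes of Hist1h1c, Hist1h2ac, Hist1h2bg, Hist3h2a, the second probe of Hist2h2bb and the brightest probe of Hist1h4i. Of these, Hist1h2ac (25.5 and 21.1 with CPEB2 IgG against 31.3 and 17.3) and Hist1h2bg (45.0 and 18.5 against 37.6 and 33.6) were dim. The group median of 0.05 is the value of Hist1h2ac. Another Hist1h4i probe, at base 575, gave -0.50. Hist2h3c2 (H3) and Hist3h2ba (H2B) lay past the end and were lower, at -1.49 ± 0.23 and -1.13 ± 0.24 (adjusted p = 0.0097 and 0.022). Within the span, 2 genes well above background on all arrays stood apart, chosen here after their values were seen. Hist1h3d (H3) read 8459 and 6250 with CPEB2 IgG against 9105 and 8337, at -0.21 ± 0.24 (adjusted p = 0.54), and Hist1h4h (H4) read 299.6 and 239 against 285 and 324, at -0.13 ± 0.26 (adjusted p = 0.73). The groups overlapped for both genes.

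The boundary itself ran close to several probes. Just past the end, at 81, 90 and 91 bases, the probes of Hist1h4i, Hist3h2ba and Hist1h2bg gave 0.74, -1.13 and -0.25. Just inside it, the 6 stem-loop probes began 26 to 61 bases before the end, and 5 of them were negative. With probes at least 100 bases past the end, 6 remained, of which 2 were below 0 and 3 above 0 in both experiments. The 5 detected probes of genes with a long RefSeq span were mixed as well. Hist1h2bc (H2B) read 2279 and 2061 against 9263 and 6260, at -1.76 ± 0.24. Hist1h2al, a transcribed pseudogene, read 101 and 59.1 against 214 and 238, at -1.50 ± 0.32 (adjusted p = 0.022). Hist1h2be and Hist1h2bp (both H2B) gave 0.22 ± 0.23 and -0.20 ± 0.23, and Hist2h2be is described above.

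**Figure D2:**
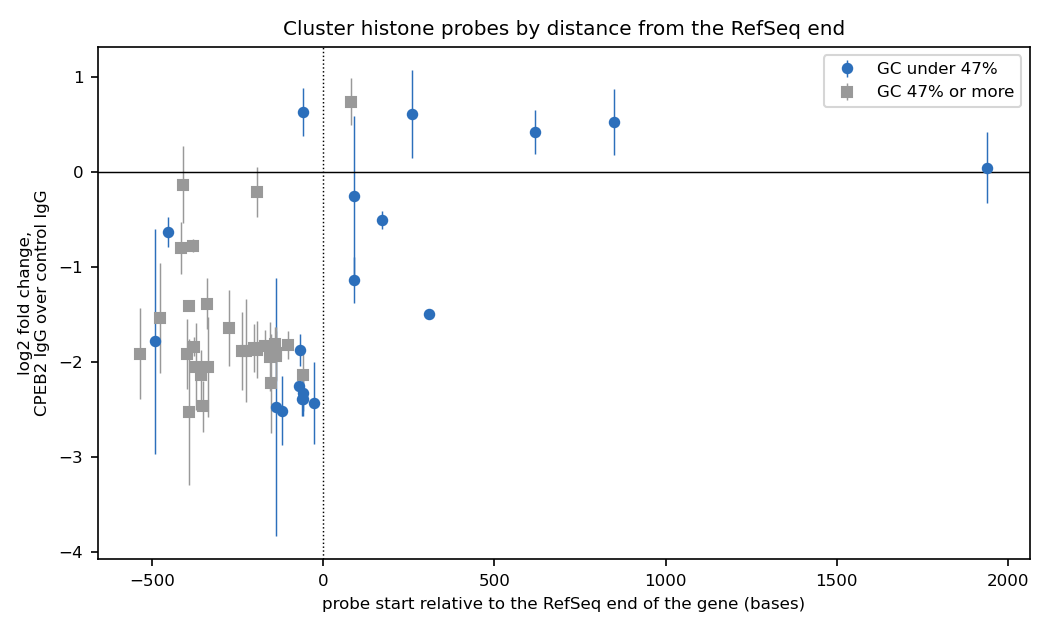
Log2 fold change of the 48 detected cluster probes of genes with a RefSeq span up to 1000 bases. The horizontal axis is the probe's first base on the array's transcript minus the RefSeq span, negative for probes counted as within the gene. It is not a distance on the genome. Bars are the SD over the 2 experiments, and blue circles and grey squares separate probes under and over 47% GC. Probes within the gene gather near -2, and probes past the end lie between -1.49 and 0.74.

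Base composition moved with position and with the fold change on these arrays. Over all detected probes the median log2 fold change fell from 0.21 at 35 to 40% GC to -0.51 at 55 to 60% GC. Cluster probes within the RefSeq span had a median GC of 55%, and those past the end 40%. Among probes under 47% GC, 10 of 11 within the span were below 0 in both experiments (median -2.33), compared with 3 of 8 past the end (median -0.10). When each probe was centred on probes of like GC, 33 cluster genes were lower and 3 higher, and the cluster median was -1.39.

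**Figure D3:**
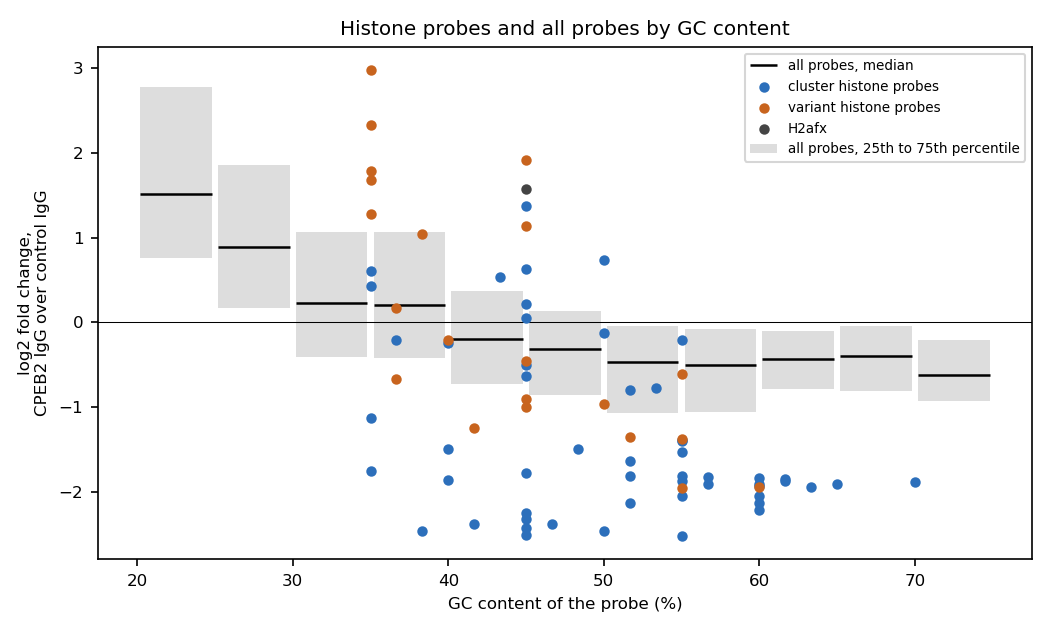
Log2 fold change of histone probes against their GC content in percent, over the 25th to 75th percentile (grey bars) and median (black lines) of all detected probes in bins of 5% GC. The median of the cluster probes is under the grey bar in each of the 8 bins that hold any. The bins of 65 to 70% and 70 to 75% GC hold 1 cluster probe each. Variant probes lie on both sides of the grey bars.

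Probes of one gene disagreed in several cases. More than 1 detected probe was present for 12 histone genes, and for 3 of these, Hist2h2bb, Hist1h4i and H3f3a, probes lay on opposite sides of 0. The downstream Hist2h2bb probe, with the poly(A) signal printed above, read 113 and 139 with CPEB2 IgG against 98.6 and 82.6 with control IgG, a log2 change of 0.53 ± 0.30 (adjusted p = 0.24 in the fit on single probes). It differed from the stem-loop probe of the same gene by 2.92, which is wider than the spread of either probe between experiments. It shares 42 bases with a probe of an unnamed intergenic transcript. For Hist1h4i, the probe in the coding part gave -1.83 ± 0.28 (adjusted p = 0.011) and a probe starting at base 575 gave -0.50 ± 0.28, against 0.74 on the brightest. Hist2h4 probes gave -2.22 and -0.78, the second of them dim. Probes of Hist1h4k and Hist1h2ak agreed within 0.11 of each other.

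**Figure D4:**
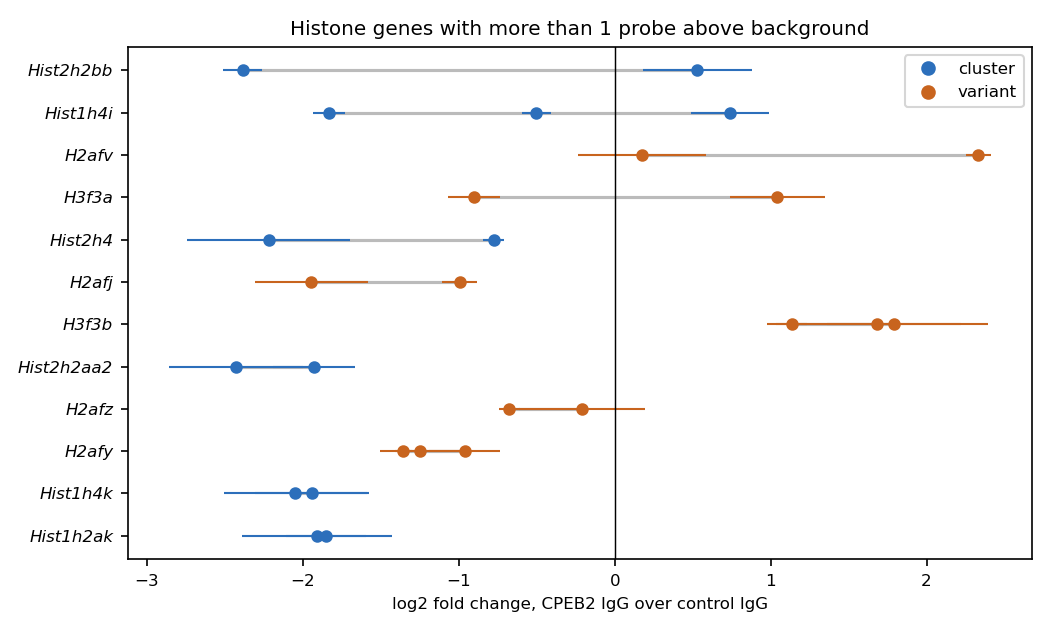
Log2 fold change of every detected probe of the 12 histone genes with more than 1 such probe, with bars for the SD over the 2 experiments. The widest gaps are those of Hist2h2bb (2.92), Hist1h4i (2.58), H2afv (2.16) and H3f3a (1.95).

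Among the variant genes, those higher with CPEB2 IgG included both macroH2A relatives H2afy2 and H2afy3, the H2A.Z gene H2afv, the H3.3 genes and H1f0. H2afy3, listed as a transcribed pseudogene of the macroH2A family, read 12752 and 13326 with CPEB2 IgG against 2006 and 1472 with control IgG. At 2.98 ± 0.25 on the log2 scale (adjusted p = 0.0054), it was the highest among the histone genes tested. H2afv, which encodes an H2A.Z histone, read 25028 and 19318 against 5060 and 4054 on the CPE-bearing probe printed above (2.33 ± 0.23, adjusted p = 0.0054). In both genes all CPEB2 IgG signals were far above all control IgG signals. The second H2afv probe, nearer the 3′ end, read 576 and 758 against 661 and 558, and at 0.17 ± 0.30 it did not pass (adjusted p = 0.71). H2afy2, which encodes macroH2A2, read 12376 and 10965 against 3416 and 3023, with a log2 fold change of 1.91 ± 0.23 (adjusted p = 0.0064).

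H3.3, the replacement form of H3, is encoded by H3f3a and H3f3b. All 3 H3f3b probes were above 0 in both experiments, between 1.14 and 1.79. The brightest read 30537 and 30761 with CPEB2 IgG against 15454 and 13544 with control IgG, and its change was 1.14 ± 0.23 (adjusted p = 0.020). For H3f3a the brightest probe, at base 959, read 16918 and 18462 against 10106 and 7840 (1.04 ± 0.25, adjusted p = 0.030). The other H3f3a probe, at base 508, went the opposite way, with 3043 and 3153 against 6538 and 5525, or -0.90 ± 0.28 (adjusted p = 0.067), and with probes of a gene averaged H3f3a came to 0.07 (adjusted p = 0.83). H1f0, the linker histone of differentiated cells, was dim, at 103 and 165 against 56.3 and 55.2, and gave 1.28 ± 0.27 (adjusted p = 0.022), or 0.72 (adjusted p = 0.012) with normexp.

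The variant genes that were lower numbered 4. H1fx, a linker histone, read 209 and 163 with CPEB2 IgG against 649 and 855 with control IgG (-1.96 ± 0.30, adjusted p = 0.0094). H2afj, an H2A variant, read 11949 and 6775 against 40776 and 31704 (-1.95 ± 0.26, adjusted p = 0.0073), but this probe holds the H2A run printed above and shares up to 38 bases with probes of cluster genes. The other H2afj probe, which shares no such run, read 592 and 522 against 1184 and 1117, or -0.995 ± 0.28 (adjusted p = 0.051). H2afy, which encodes macroH2A1, read 609 and 708 against 1740 and 1514 (-1.25 ± 0.24, adjusted p = 0.017), and its 3 probes all lay between -1.36 and -0.96. H2afy thus went down where H2afy2, the gene for the other macroH2A protein, went up, and the ranges of their experiments were far apart (-1.43 and -1.07 against 1.94 and 1.88). H2afb2-ps, of a testis H2A family, was dim (30.4 and 16.8 against 77.2 and 48.2, above background on 3 arrays) and gave -1.38 ± 0.24 (adjusted p = 0.012), a call that was lost at -0.43 (adjusted p = 0.071) with normexp background correction.

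The remaining variants did not pass. H2afz, the other H2A.Z gene, read 13609 and 21622 with CPEB2 IgG against 20330 and 20838 with control IgG, so that its groups overlapped (-0.21 ± 0.26, adjusted p = 0.57), and its second probe gave -0.68 ± 0.28 (adjusted p = 0.13). H1foo, the oocyte linker histone, read 84.6 and 82.1 against 120 and 118 (-0.46 ± 0.23, adjusted p = 0.18) and carries TTTTAT in its probe. H1fnt, a testis linker histone, read 26.1 and 12.9 against 29.8 and 28.2 (-0.61 ± 0.32, adjusted p = 0.20). H2afx, whose histone marks DNA breaks when phosphorylated, read 6104 and 5139 with CPEB2 IgG against 1986 and 1911 with control IgG. Its change was 1.58 ± 0.24 (adjusted p = 0.0092), on a probe at base 1236 of a RefSeq gene of 1363 bases.

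**Figure D5:**
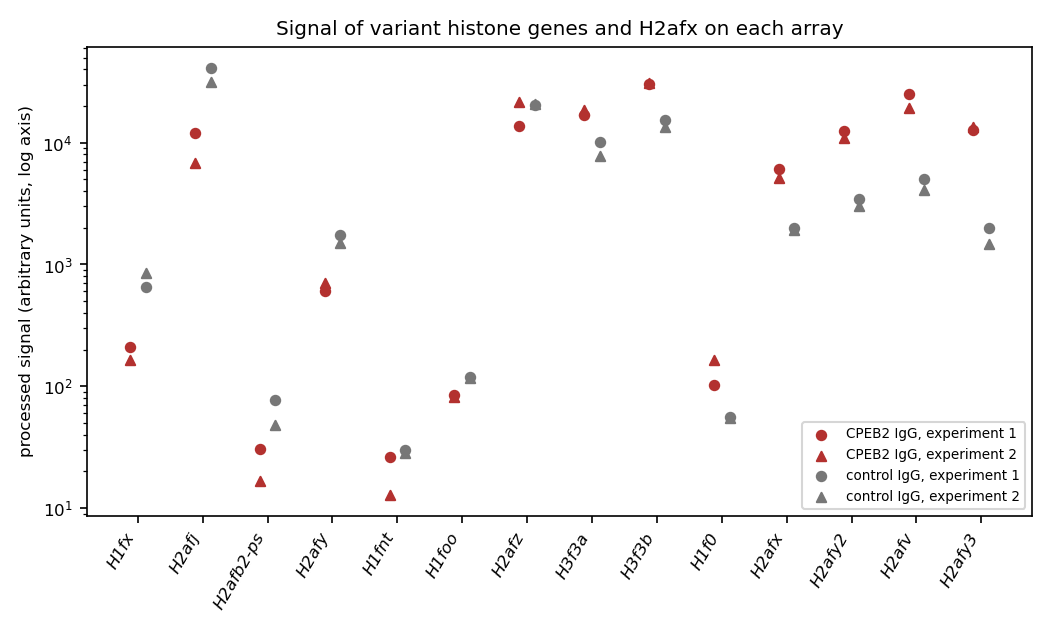
Processed signal (arbitrary units, log axis) of the brightest probe of each variant histone gene and H2afx on the 4 arrays, ordered by fold change. Red symbols are CPEB2 IgG and grey symbols control IgG, with circles for experiment 1 and triangles for experiment 2. H2afz is the gene whose groups overlap, and signals of different genes come from different probes and are not comparable.

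The 4 genes not tested had no probe well above background on 2 arrays. Hist1h2ae and Hist1h2bq were not well above background on any array. H2afb1 and Hist1h1d were so on 1 array each, the latter with 323 on the first CPEB2 IgG array and 3.73 to 4.28 on the others.

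The study's thresholds were a fold change over 1.5 and a raw signal over 1000, and it also required a CPE in the 3′ untranslated region. Here the CPE was not required, the fold change was the mean of both experiments, and any probe of a gene could count. With a raw signal over 1000 on either CPEB2 IgG array, 8 of the 64 histone genes were selected. That share is near the 13.9% of all genes (3358 of 24164). They were H2afv, H2afx, H2afy2, H2afy3, H3f3a and H3f3b together with Hist1h4i and Hist3h2a. The 2 cluster genes were those on probes past the RefSeq end, with fold changes of 1.67 and 1.53 close to the threshold. The Hist1h4i probe is the one that shares a run with a Galns probe. No probe of a cluster gene within its RefSeq span was selected.

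Genes that act on histone mRNA or protein were mixed, and the shares to read their counts against are the 21.2% higher and 20.4% lower of all genes. Of 22 genes of histone mRNA 3′ end formation and decay, 4 were higher and 6 lower (median 0.04). The most negative was Lsm11, a part of the U7 snRNP that cleaves histone pre-mRNA, at -2.43 ± 0.31 (adjusted p = 0.0070), and the most positive was Cpsf2, a cleavage complex subunit, at 2.41 ± 0.29 (adjusted p = 0.0063). Slbp, singled out after its values were seen because its protein binds the printed stem-loop, read 35.4 and 32.9 with CPEB2 IgG against 102 and 143 (-1.77 ± 0.27, adjusted p = 0.0099). Of 23 histone chaperone genes, 8 were higher and 2 lower (median 0.59), from Chaf1a at -2.24 to Rbbp4 at 1.96. Of 14 S phase and division genes tested, 2 were higher and 6 lower (median -0.45), from Mcm5 at -2.63 to Mcm4 at 2.00.

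Of the cluster genes best known from testis, Hist1h1t (H1) read 93.6 and 74.0 with CPEB2 IgG against 431 and 391 (-2.25 ± 0.24, adjusted p = 0.0056), and Hist1h2ba (H2B) read 940 and 646 against 2551 and 2488 (-1.64 ± 0.26, adjusted p = 0.011). Between 68.4% and 74.1% of spots per array were well above background and 0 were saturated. The neuron markers were detected on all arrays, 6 of 6, with summed signals of 115165 to 117956 with CPEB2 IgG and 127071 to 128010 with control IgG. Summed signals of 4 of 4 astrocyte markers were 29288 to 31599 against 14377 to 19015, a sum that Slc1a3 carried (3.44, higher), while Aldh1l1 (-3.77) and Gfap (-0.90) were lower and the median was -0.16. The sums were, of 4 oligodendrocyte markers 51066 to 52466 against 39584 to 50502, of 4 microglia markers 6293 to 7195 against 9882 to 12027 (1 higher, P2ry12 at 2.30, and 2 lower, Aif1 at -2.64 and Csf1r at -1.35), and of 3 endothelial markers 1693 to 1757 against 1857 to 2344. Testis germ cell markers, checked because Hist1h1t, Hist1h2ba and H1fnt are best known from testis, summed to 67.6 to 127 against 187 to 214, and 1 of 3 was detected on all arrays. The part of these markers in the histone values was not tested.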

How the data were processed

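RNA from 2 RIP experiments with CPEB2 IgG and control IgG was measured on 4 Agilent SurePrint G3 Mouse GE 1-colour arrays. The authors deposited spot intensity values from Agilent Feature Extraction 10.5.1.1 (background-corrected processed signals), with no normalization between arrays. Probe coordinates are on mm9. The 698 spots that the scanner software marked (non-uniform, population outlier) were not used, which removed 66 of 55681 probes. Log2 intensity minus the 75th percentile of each array was analysed, using for each gene its brightest probe among those well above background on at least 2 arrays. limma 3.58.1 in R 4.3.3 was fitted over 19698 genes with the experiment as block (Benjamini-Hochberg, 0.05), and every adjusted p in the text comes from limma. With 1 residual degree of freedom per gene, the precision rests on the variance shared across genes, and the number of arrays limits it. Pairs share a divided lysate, and same-numbered arrays deviated together (correlation 0.203). Tables were summarised with Python 3.11.15, numpy 2.4.6 and pandas 2.3.3. RefSeq gene spans were matched by the transcript identifier of the probe, or failing that by symbol or a unique synonym. The members and lists were chosen with earlier results of these data known. Genes given in full are all variants, H2afx, and the 5 cluster genes that changed most in either direction or had the highest control IgG signal.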

Additional observations from a re-analysis of the deposited data

How the results depend on the processing

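The 33 cluster genes that were lower stayed below 0 under every alternative that kept them, and 32 or 33 stayed called except without a filter on dim probes (24) and with only probes well above background on all arrays (31 of the 31 kept). Without the replicate block the counts were again 33 lower and 1 higher for cluster genes and 6 higher and 4 lower for variants. Scaling moved the median of all genes by 0.13 (quantile), 0.23 (median centring), -0.11 (percentile over detected probes) and 0.17 (GC centring). Relative to the median of all genes, the cluster median lay between -1.74 and -1.39. The 1 cluster gene called higher became 2 with quantile normalization, normexp or detection on all arrays, 3 with median centring, GC centring or an intensity trend, and 0 without a filter. With normexp, 3 variants were lower instead of 4. The cluster median was -1.43 with normexp and -1.39 with GC centring. Without a filter, 4 histone genes were higher, with 3 variants higher and 2 lower. H1f0, H1fx, H2afy, H3f3a, H3f3b, Hist1h2bm, Hist2h2ab and Hist2h2be then missed the threshold (adjusted p 0.052 to 0.099). With genes left out whose tested probe shares such a run, 21 histone genes and 18 cluster genes were lower, and the medians were -1.45 (cluster) and 0.42 (variant). This set lacks H2afj, which was lower and whose other probe shares no such run (-0.995). The variant median also turned to 0.069 with quantile normalization, 0.018 with median centring and 1.04 with detection on all arrays (class difference -2.86), and was -0.44 with probes averaged. H2afz, the gene at that median, turned to 0.069 and 0.018 under these scalings. Leaving out a replicate gave -1.97 to -1.55 for the cluster median, -0.11 to 0.077 for the variant median and for H2afz -0.50 to 0.077, and -2.04 to -1.44 for the class difference, the variant median and H2afz turning positive without replicate 1. Hist1h4i turned to -0.53 with probes averaged. With probes averaged, H2afv came to 1.25 and Hist2h2bb to -0.93. The median of probes past the RefSeq end, an alternative set chosen after seeing the data, was -0.10 under 47% GC, 0.24 at least 100 bases past it, and 0.26 to 0.31 with a replicate left out. Where a value turned, the cause was not tested. Dim spots limit Hist1h2ac, Hist1h2bg, Hist1h3a, Hist1h3g, Hist2h2ab and H2afb2-ps.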
